A study of Homo sapiens with 5 samples.

Results

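The genes described here build and regulate the DNA replication machinery. They comprise 55 genes of origin licensing, the replicative polymerases, the sliding clamp and its loader, lagging strand processing, deoxynucleotide supply, the E2F and cyclin E switch, and chromatin assembly behind the fork. They were chosen by name, with earlier results of these data known. A gene was taken as measured where a probe set carried its symbol and no other, and the brightest probe set stood for the gene. Of the 55 genes, 49 were measured, among 7713 genes in all. MCM4, MCM7, CDT1, GINS1, TIPIN and CCNE1 were not analysed here.

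The cells were KM-H2 (written KMH2 in the labels), an established Hodgkin lymphoma line of B-cell origin. Cultures were exposed for 16 hours to 30 uM LY294002, an inhibitor of phosphoinositide 3-kinase that also binds other kinases and BET bromodomain proteins (2 arrays), or to its solvent DMSO alone (3 arrays). All cultures shared 1 cell line and the same medium, RPMI1640 with FCS. The plan was 3 arrays a group, and the authors left 1 array out for high background. The labels do not say that replicates were separate cultures, and the p-values therefore cover the variation seen between the arrays at hand, part or all of which may be technical.

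Replication begins in G1, when ORC, CDC6 and CDT1 load the ring of MCM subunits onto origins. At the start of S phase, cyclin E with CDK2, and the kinase CDC7, turn loaded rings into active helicases with CDC45 and the GINS complex, and DNA polymerases alpha, delta and epsilon then copy the strands. Most of these genes are known targets of the E2F factors, which are held in check by RB until mitogenic signals, among them signals through PI3K, activate the G1 cyclins.

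The values are log2 signals of probe sets on a 1-colour oligonucleotide array, with a median of 6.26 to 6.29 per array. The upper quartile stood at 7.69 for LY294002 replicate 1, above the 7.59 to 7.62 of the remaining arrays. Of 10 Hodgkin and Reed-Sternberg cell genes fixed as markers, 9 had a mean level above the median of all values with LY294002 and 10 with DMSO. Among them only IRF4 passed the test, and it rose (log2 fold change 0.66 ± 0.07, limma adjusted p = 0.0473). The log2 fold change was below 0 in 6 of the 10 and above 0 in 4. TNFRSF8 had the lowest, -0.68 ± 0.17 (limma adjusted p = 0.157). Both LY294002 arrays lay below all DMSO arrays in 5 of the 10 and above them in 4, against 13.4% and 16.2% of all genes. Of the 4 B cell markers measured, CD79A and CD79B lay below that median in both groups, and CD22 and MS4A1 above it in both. MS4A1 averaged 9.42 with LY294002, against 10.42 with DMSO, and did not pass (limma adjusted p = 0.073), and CD22 averaged 7.57 with LY294002, against 7.64 with DMSO. Both measured markers of monocytes, CD14 and CSF1R, lay below it as well, as did 3 of 4 fibroblast markers. All 5 measured T cell markers lay above it, at means of 6.55 to 8.71 with LY294002, against 6.71 to 8.80 with DMSO, and 0 of them passed the test. The part of other cells in the results was not tested.

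With LY294002 most replication genes sat slightly below their DMSO level. The log2 fold change, LY294002 minus DMSO, was below 0 for 45 of 49 genes (91.8%) and above 0 for ORC4, RPA1, DCK and E2F3. Over all 7713 genes 55.7% of log2 fold changes were below 0. The median was -0.17 for the replication genes, a 1.12-fold lower level, and -0.01 over all genes. A smaller share of cells in S phase and less mRNA per cell cannot be told apart in RNA from whole cultures.

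One gene passed the test. POLE2, the accessory subunit of DNA polymerase epsilon, fell 1.28-fold (limma adjusted p = 0.0388), and 0 of the 49 genes rose. The adjustment runs over all 8746 probe sets, and past the same threshold of 0.05 lay 0.298% of all genes in the downward and 0.609% in the upward direction. At an unadjusted p under 0.05, 17 replication genes (34.7%) were lower and 1, ORC4, was higher, against 6.5% and 10.6% of all genes. Both LY294002 arrays lay below all 3 DMSO arrays in 23 of 49 genes (46.9%), against 13.4% of all genes. They lay above all DMSO arrays in 2 genes, ORC4 and DCK (4.08%), against 16.2% of all genes. The 49 genes were chosen with earlier results of these data known, are co-regulated and share 5 arrays. These counts are therefore a description of the group and not a test of it.

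**Figure D1:**
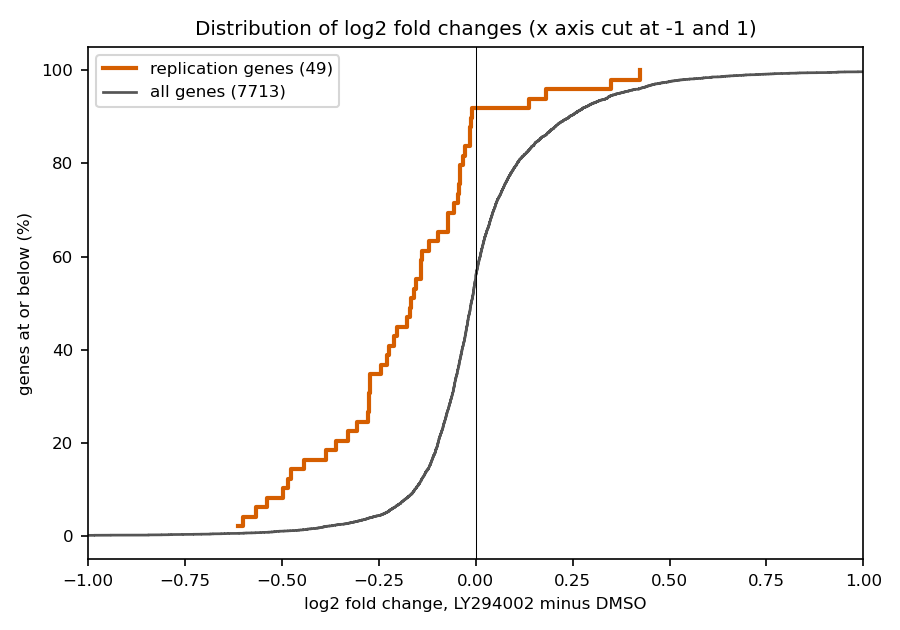
Cumulative share of genes (y axis, percent) at or below each log2 fold change, LY294002 minus DMSO (x axis), for 49 replication genes and for all 7713 genes. The curve of the replication genes reaches 91.8% at 0, where that of all genes stands at 55.7%, and their medians are -0.17 and -0.01.

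Promoters are shown because most of these genes are known targets of the E2F factors. The part of E2F in the lower levels was not tested. RefSeq promoter windows (GRCh38.p14, from 250 bases before to 50 bases after the annotated start) were found for 44 of the 49 genes. They were searched on both strands for the E2F letters TTTCCCGC, TTTCGCGC, TTTGCCGC and TTTGGCGC. Such letters stood in 19 of 44 windows (43.2%), against 290 of 6209 windows of all measured genes (4.67%) and 3.33% of the 27305 windows in the table. The CCAAT box, searched as CCAAT, stood in 25 of 44 (56.8%), against 36.8% of the windows of measured genes. TTTGAA, the core of the CHR element known from mitotic genes, stood in 2 of 44 (4.55%), against 11.5%. A match to these letters is a description of the window and not a shown binding site.

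The stretches below, each 28 bases read 5′ to 3′ on the strand of the gene, surround the first E2F letters of the 7 members that lay more than 0.3 below DMSO and hold such letters, and of the 2 members with E2F letters that lay above it (DCK and E2F3). The other 5 of the 12 members more than 0.3 below DMSO, which are RFC4, FEN1, RRM1, DUT and SLBP, hold none of the letters in their windows. Capitals mark the E2F letters on either strand.
MCM2: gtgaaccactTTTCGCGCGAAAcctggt
MCM3: ggatggtacgTTTCCCGCcaccgcgggg
CDC6: gccattcggaTTTGGCGCgagcgcggct
POLA1: tcatcacaggGCGCCAAAcgcgcgtccg
POLE2: tgcggcggtgGCGCCAAAtcgcaaatat
PCNA: agcgtcagggGCGGGAAAaggcgtgcgt
TYMS: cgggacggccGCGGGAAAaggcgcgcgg
DCK: ctgcctccgcGCGCCAAAgtcaaacccc
E2F3: tgaaaagccgGCGGGAAAtccgagtttc

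The MCM2 stretch holds matches on both strands that overlap in 1 palindrome beginning 2 bases after the start base. The POLE2 match begins 5 bases before the start base, that of PCNA 59 before, and that of TYMS 39 before. POLE2, POLA1 and DCK carry the same 8 letters, GCGCCAAA on the strand shown, and CDC6 carries them on the other strand. POLE2 fell, and POLA1 and CDC6 had log2 fold changes of -0.48 each, without passing the test. DCK, which did not pass either, had a log2 fold change of 0.42, and of 0.12 without LY294002 replicate 1. Among the members, the median log2 fold change was -0.17 for the 19 genes with E2F letters in the window and -0.14 for the 25 without, with 17 of 19 and 23 of 25 below 0. Over all measured genes both medians were near 0, -0.0048 with the letters (290 genes) and -0.0078 without (5919 genes).

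The whole windows are shown for POLE2, the gene that fell, for MCM2, which had the largest difference among licensing genes, and for DUT, which had the largest of all members and holds none of the 4 E2F spellings. The windows are POLE2 at chr14:49688165-49688464 on the minus strand, MCM2 at chr3:127598161-127598460 on the plus strand and DUT at chr15:48330845-48331144 on the plus strand.
POLE2: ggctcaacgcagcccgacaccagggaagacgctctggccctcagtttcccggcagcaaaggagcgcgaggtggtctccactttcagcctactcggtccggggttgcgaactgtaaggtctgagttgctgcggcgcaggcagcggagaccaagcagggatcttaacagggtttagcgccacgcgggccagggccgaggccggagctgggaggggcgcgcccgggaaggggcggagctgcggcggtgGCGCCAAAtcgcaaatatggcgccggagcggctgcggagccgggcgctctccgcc
MCM2: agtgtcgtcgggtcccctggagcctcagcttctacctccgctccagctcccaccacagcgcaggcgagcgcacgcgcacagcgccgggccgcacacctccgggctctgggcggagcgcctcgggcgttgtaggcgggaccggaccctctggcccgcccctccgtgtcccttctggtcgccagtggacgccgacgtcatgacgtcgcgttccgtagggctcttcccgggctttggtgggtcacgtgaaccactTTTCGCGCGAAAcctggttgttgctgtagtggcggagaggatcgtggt
DUT: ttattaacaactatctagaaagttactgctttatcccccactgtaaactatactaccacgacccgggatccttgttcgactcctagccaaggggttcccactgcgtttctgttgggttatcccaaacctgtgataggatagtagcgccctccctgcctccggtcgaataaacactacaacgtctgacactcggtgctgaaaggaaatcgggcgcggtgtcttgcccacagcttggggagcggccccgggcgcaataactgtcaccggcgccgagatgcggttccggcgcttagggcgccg

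Levels below are log2 values, and errors of log2 fold changes are standard errors of the fit over 2 LY294002 and 3 DMSO arrays. Among the 13 measured genes of origin licensing and firing, 12 lay below DMSO, with a median log2 fold change of -0.21, and 0 passed the test. The median was -0.08 without LY294002 replicate 2 and -0.12 without DMSO replicate 2. The groups did not overlap in 5 of them on the low side (MCM2, MCM3, ORC1, CDC6 and CDC45), 38.5% against 13.4% of all genes. On the high side they did not overlap in ORC4, 7.69% against 16.2% of all genes.

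MCM2, a subunit of the helicase ring, stood at 9.94 and 9.67 on the LY294002 arrays, against 10.21, 10.51 and 10.39 on the DMSO arrays. Its log2 fold change was -0.57 ± 0.13 (limma adjusted p = 0.133). MCM3, another subunit of the ring, stood at 9.87 and 9.57 with LY294002, against 10.11, 10.04 and 9.91 with DMSO (log2 fold change -0.31 ± 0.11, and -0.16 without LY294002 replicate 2). In MCM3 the higher LY294002 array came within 0.05 of the lowest DMSO array, while MCM2 left a gap of 0.27. The other ring subunits measured, MCM5 and MCM6, had log2 fold changes of -0.22 ± 0.13 and -0.12 ± 0.07, and their groups overlapped.

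CDC6, the ATPase that loads the ring together with ORC, stood at 6.36 and 6.40 with LY294002, against 6.68, 7.08 and 6.83 with DMSO, a log2 fold change of -0.48 ± 0.12 (limma adjusted p = 0.167). Its LY294002 arrays were close to each other and below all DMSO arrays, which spread more widely. The subunits of the origin recognition complex differed from each other in size and sign. ORC1, the subunit known to cycle with E2F activity, had a log2 fold change of -0.24 ± 0.10, whereas ORC2, ORC3 and ORC5 lay between -0.04 and -0.01. ORC4 was the 1 licensing gene on the high side, at 8.42 and 8.13 with LY294002, against 7.86, 8.06 and 7.87 with DMSO (log2 fold change 0.35 ± 0.12, and 0.20 without LY294002 replicate 1). LY294002 replicate 1 was the higher of the pair for ORC4, and replicate 2 was 0.07 above the highest DMSO array.

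Of the factors that fire loaded origins, CDC45, the helicase cofactor, had a log2 fold change of -0.27 ± 0.11 with separate groups, and the GINS subunit GINS2 one of -0.21 ± 0.14 with overlapping groups. CDC7, the kinase that activates the ring, stood at 8.17 and 8.14 with LY294002, against 8.17, 8.13 and 8.19 with DMSO. The groups of CDC7 lay on top of each other, and the 95% interval of its log2 fold change ran from -0.0996 to 0.08.

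**Figure D2:**
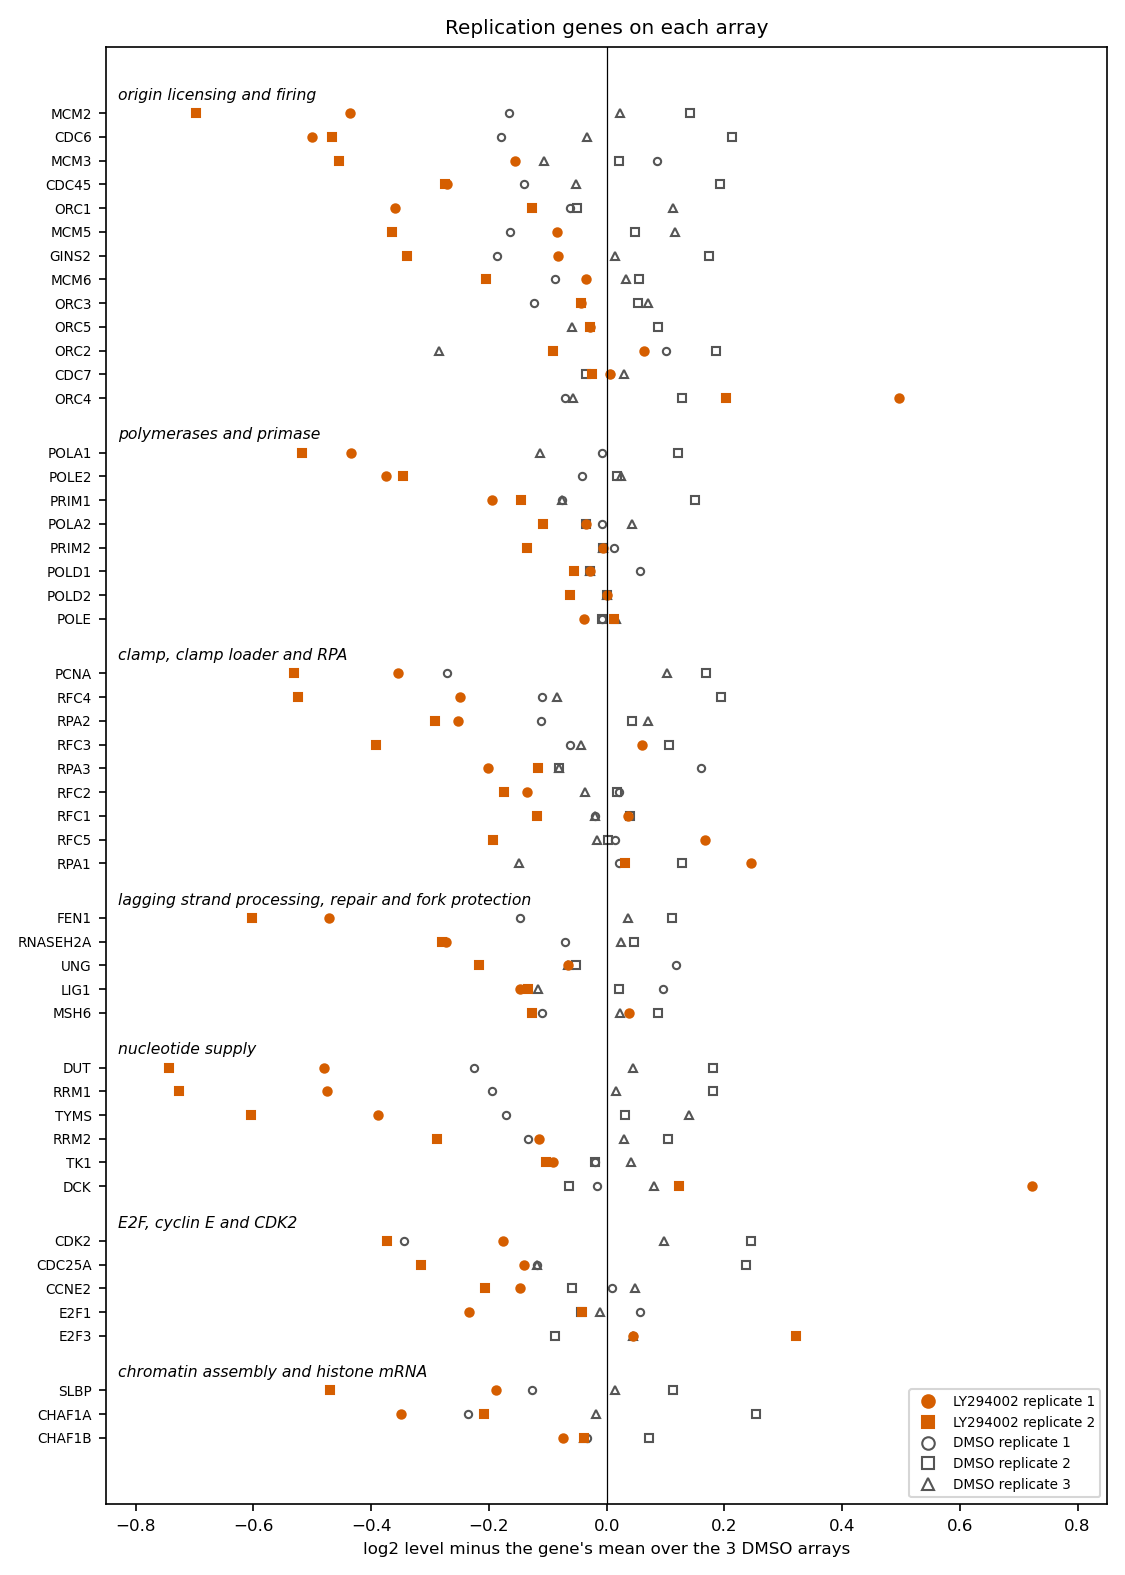
Log2 level of each of 49 replication genes on each array, minus the mean of the gene over the 3 DMSO arrays (x axis), with the genes in rows by role and ordered by log2 fold change. Filled symbols are the 2 LY294002 arrays and open symbols the 3 DMSO arrays. The LY294002 points lie left of all DMSO points in 23 genes (46.9%) and right of them in 2 (4.08%), against 13.4% and 16.2% of all genes.

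All 8 polymerase and primase genes had log2 fold changes below 0, with 2 lower by over 0.3, 1 between, 5 within 0.1 of 0, and a median of -0.07. That median ran from -0.12 without LY294002 replicate 1 to -0.04 without LY294002 replicate 2, and it was -0.36 over the 3 of these genes left when probe sets with repeated values were removed. POLE2 stood at 7.72 and 7.75 with LY294002, against 8.05, 8.11 and 8.12 with DMSO. The arrays of each group lay within 0.07 of each other, and the gap between the groups was 0.30. Its log2 fold change was -0.36 ± 0.04, and 9 other members had lower log2 fold changes with larger errors. Without any 1 of the 5 arrays POLE2 no longer passed: its log2 fold change ran from -0.38 to -0.35 and its limma adjusted p from 0.0725 (without LY294002 replicate 2) to 0.181 (without DMSO replicate 3). With 1 array fewer, 0 of all 7713 genes passed on the low side in any of these fits and 0 to 4 on the high side. The adjusted p was 0.053 with an intensity trend and robust prior, 0.0682 with array weights and 0.222 without variance moderation.

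POLE, the catalytic subunit that POLE2 accompanies, stood at 7.77 and 7.82 with LY294002, against 7.80, 7.80 and 7.82 with DMSO. The 95% interval of the POLE log2 fold change, -0.10 to 0.07, did not reach the value of POLE2, whose own interval ran from -0.45 to -0.27; the difference between the 2 genes was not tested. POLA1, the catalytic subunit of polymerase alpha, stood at 8.05 and 7.97 with LY294002, against 8.48, 8.60 and 8.37 with DMSO, with a log2 fold change of -0.48 ± 0.08 (limma adjusted p = 0.0827). Its groups were separated by 0.32. POLA2, the partner subunit of POLA1, stood at 6.92 and 6.85 with LY294002, against 6.95, 6.92 and 7.00 with DMSO, and LY294002 replicate 1 equalled DMSO replicate 2.

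PRIM1, the catalytic primase subunit, stood at 8.40 and 8.45 with LY294002, against 8.52, 8.74 and 8.52 with DMSO. Its 2 identical DMSO values are an example of a feature of this table: 5 of the 8 polymerase and primase genes, 12 of the 49 members (24.5%) and 38.1% of all genes held the same value on at least 2 arrays of a group. PRIM2, the other primase subunit, and the polymerase delta subunits POLD1 and POLD2 had log2 fold changes between -0.07 and -0.03. In each of them the higher LY294002 array equalled the lowest DMSO value.

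Around the clamp, 8 of 9 genes lay below DMSO, with a median of -0.16, and 0 passed the test. Groups were separate on the low side in 5 (PCNA, RFC2, RFC4, RPA2 and RPA3), 55.6% against 13.4% of all genes. The gap was 0.04 in RPA3. PCNA, the sliding clamp that tethers the polymerases, stood at 9.76 and 9.58 with LY294002, against 9.84, 10.28 and 10.21 with DMSO. DMSO replicate 1 lay much nearer to the LY294002 arrays than to the other DMSO arrays for PCNA, and the log2 fold change was -0.44 ± 0.16. RFC4, a clamp loader subunit, stood at 9.00 and 8.73 with LY294002, against 9.14, 9.44 and 9.17 with DMSO, a log2 fold change of -0.39 ± 0.13 that was -0.25 without LY294002 replicate 2.

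The loader subunits differed in how well they separated. RFC2 had a log2 fold change of only -0.15 ± 0.03, but the small spread kept its groups apart. RFC3 stood at 8.86 and 8.41 with LY294002, against 8.74, 8.90 and 8.75 with DMSO, so that LY294002 replicate 1 lay among the DMSO arrays and replicate 2 alone was low. RFC5 showed the LY294002 arrays on either side of DMSO, at 7.89 and 7.53, against 7.74, 7.73 and 7.71, with a log2 fold change of -0.01 and a 95% interval from -0.31 to 0.29. RFC1, the large subunit and the 1 member with 2 probe sets, was at -0.04 on the brighter and -0.02 on the dimmer one. Of the single-strand binding protein RPA, RPA2 stood at 8.94 and 8.90 with LY294002, against 9.08, 9.24 and 9.26 with DMSO, a log2 fold change of -0.27 ± 0.07. RPA3 had one of -0.16 ± 0.09 and the large subunit RPA1 one of 0.14 ± 0.11, with overlapping groups in RPA1.

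The 5 measured genes of lagging strand processing and repair all lay below DMSO, with a median of -0.14. Groups were separate for FEN1, RNASEH2A and LIG1, 60% against 13.4% of all genes. FEN1, the nuclease that trims flaps of Okazaki fragments, stood at 9.33 and 9.19 with LY294002, against 9.65, 9.91 and 9.83 with DMSO, a log2 fold change of -0.54 ± 0.09 (limma adjusted p = 0.0893). RNASEH2A, a subunit of the enzyme that removes RNA from DNA, stood at 8.68 and 8.67 with LY294002, against 8.88, 9.00 and 8.97 with DMSO, a log2 fold change of -0.28 ± 0.05 (limma adjusted p = 0.0827). Both genes had every LY294002 array at least 0.20 below the lowest DMSO array.

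LIG1, the ligase that seals the fragments, stood at 7.46 and 7.47 with LY294002, against 7.70, 7.63 and 7.49 with DMSO, and its groups were apart by no more than 0.02. UNG, which removes uracil from DNA, stood at 6.77 and 6.62 with LY294002, against 6.95, 6.79 and 6.77 with DMSO. MSH6, a mismatch sensor, stood at 9.35 and 9.18 with LY294002, against 9.20, 9.40 and 9.33 with DMSO. For UNG, LY294002 replicate 1 equalled DMSO replicate 3, the lowest of its group. For MSH6, LY294002 replicate 1 lay within the DMSO range, and the 95% interval ran from -0.27 to 0.18.

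Nucleotide supply held the lowest role median, -0.35 over 6 genes. Groups were separate on the low side in 4 (RRM1, TYMS, TK1 and DUT), 66.7% against 13.4% of all genes. On the high side they were separate in DCK, 16.7% against 16.2% of all genes. DUT, the dUTPase that keeps uracil out of DNA, stood at 7.43 and 7.17 with LY294002, against 7.68, 8.09 and 7.95 with DMSO. Its log2 fold change of -0.61 ± 0.15, a 1.53-fold lower level, was the largest of the 49 in size and did not pass (limma adjusted p = 0.158). RRM1, the large subunit of ribonucleotide reductase, stood at 8.53 and 8.27 with LY294002, against 8.80, 9.18 and 9.02 with DMSO, a 1.52-fold lower level (log2 fold change -0.60 ± 0.14, limma adjusted p = 0.145). In both genes LY294002 replicate 2 was the lowest array and DMSO replicate 1 the lowest of its group.

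TYMS, thymidylate synthase, stood at 10.95 and 10.74 with LY294002, against 11.17, 11.37 and 11.48 with DMSO, a log2 fold change of -0.50 ± 0.12. TK1, the thymidine kinase of the salvage route, stood at 6.76 and 6.75 with LY294002, against 6.83, 6.83 and 6.89 with DMSO, a small difference of -0.10 ± 0.03. The log2 fold changes of the thymidylate enzymes were thus unequal in size. RRM2, the small reductase subunit, had a log2 fold change of -0.20 ± 0.09 with overlapping groups. DCK, the deoxycytidine kinase of the salvage route, stood above DMSO, at 6.99 and 6.39 with LY294002, against 6.25, 6.20 and 6.34 with DMSO. Its log2 fold change of 0.42 ± 0.19 rested on LY294002 replicate 1, and without that array it was 0.12, and without LY294002 replicate 2 it was 0.72.

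**Figure D3:**
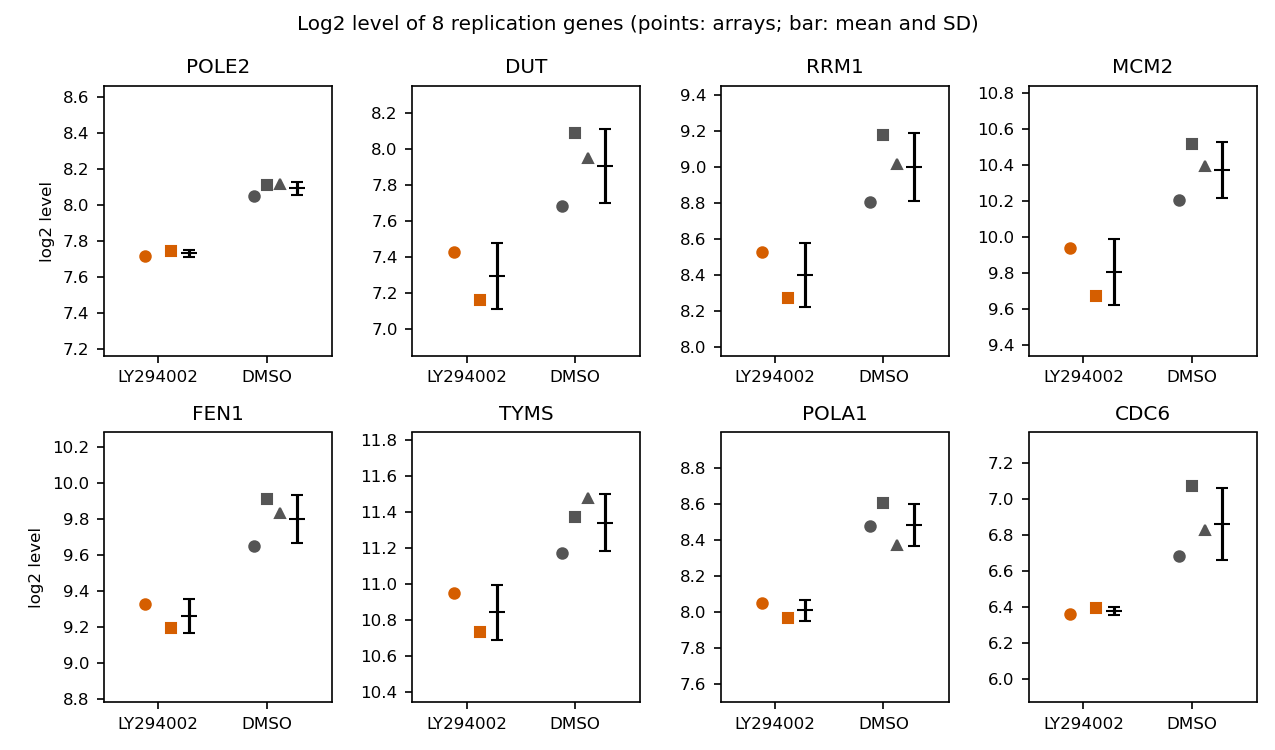
Log2 level (y axis, each panel spanning the same range of 1.5 log2 units) of 8 replication genes on the 2 LY294002 arrays (left in each panel) and the 3 DMSO arrays (right); circles, squares and triangles are replicates 1, 2 and 3, and the bars are mean and SD. The genes are POLE2, which passed the test, and the members with the lowest log2 fold changes. In 24 of the 49 members the groups overlapped. POLE2 shows arrays of a group closest together, and DUT, at 7.43 and 7.17 against 7.68, 8.09 and 7.95, the largest difference.

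Cyclin E with CDK2 and the E2F factors govern entry into S phase. Of 5 measured genes of the E2F and cyclin E group, 4 lay below DMSO, and the median was -0.18. Groups were separate on the low side in CCNE2 and CDC25A, 40% against 13.4% of all genes. E2F1, the activating E2F factor, stood at 7.20 and 7.39 with LY294002, against 7.49, 7.39 and 7.42 with DMSO. E2F3, another activator, stood at 7.31 and 7.58 with LY294002, against 7.31, 7.17 and 7.31 with DMSO, a log2 fold change of 0.18 ± 0.10 with 3 arrays at the same value. Neither E2F1, at -0.14, nor E2F3 passed (limma adjusted p = 0.422 and 0.435). Single arrays moved both: E2F1 was at -0.04 without LY294002 replicate 1 and -0.23 without replicate 2, and E2F3 was at 0.32 without LY294002 replicate 1 and 0.04 without replicate 2.

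CCNE2, a cyclin partner of CDK2, stood at 5.15 and 5.09 with LY294002, against 5.31, 5.24 and 5.35 with DMSO, a log2 fold change of -0.18 ± 0.05 on a probe set below the array medians. CDC25A, the phosphatase that activates CDK2, stood at 8.37 and 8.19 with LY294002, against 8.39, 8.74 and 8.39 with DMSO, and the groups were 0.02 apart. CDK2 itself stood at 8.97 and 8.77 with LY294002, against 8.80, 9.39 and 9.24 with DMSO. DMSO replicate 1 lay between the LY294002 arrays for CDK2. The CDK2 log2 fold change of -0.27 was -0.45 without DMSO replicate 1, -0.15 without DMSO replicate 2 and -0.18 without LY294002 replicate 2. That of CDC25A, -0.23, was -0.11 without DMSO replicate 2 and -0.14 without LY294002 replicate 2.

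SLBP, the protein that binds the stem-loop of replication-dependent histone mRNA, stood at 8.51 and 8.23 with LY294002, against 8.57, 8.81 and 8.72 with DMSO, a log2 fold change of -0.33 ± 0.12 that was -0.19 without LY294002 replicate 2. CHAF1A, the large subunit of the assembly factor CAF-1, stood at 6.80 and 6.94 with LY294002, against 6.91, 7.40 and 7.13 with DMSO. Its partner CHAF1B stood at 7.51 and 7.54 with LY294002, against 7.55, 7.65 and 7.54 with DMSO. Groups were separate in SLBP and overlapped in CHAF1A, and in CHAF1B LY294002 replicate 2 equalled DMSO replicate 3, the lowest of its group. CHAF1A had a log2 fold change of -0.28, which was -0.15 without DMSO replicate 2, and CHAF1B had a 95% interval from -0.18 to 0.07.

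Arrays of 1 group were not alike across the members. The median member stood at -0.14 on LY294002 replicate 1 and -0.21 on LY294002 replicate 2, relative to its DMSO mean, and at -0.06, 0.05 and 0.01 on DMSO replicates 1, 2 and 3. All genes had medians between -0.01 and 0.0038 on the same scale. LY294002 replicate 1 was above replicate 2 in 36 of 49 members (73.5%), against 44.0% of all genes, and replicate 1 is the array with the higher upper quartile. DMSO replicate 1 was the lowest of its group in 24 of 49 members, against 2596 of all 7713 genes. DMSO replicate 2 was the highest in 26 (53.1%, against 31.2% of all genes). The part of these array differences in the results was not tested. Without LY294002 replicate 2, 38 of 49 log2 fold changes were below 0 and the median was -0.14, and without LY294002 replicate 1 these were 44 and -0.21. With fewer arrays to separate, more genes of any kind had LY294002 below DMSO. Without LY294002 replicate 1 this held for 37 members (75.5%), against 24.3% of all genes, and without LY294002 replicate 2 for 27 members (55.1%), against 38.5% of all genes. Without any 1 DMSO array it held for 25 to 30 members, against 16.6% to 20.2% of all genes.

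**Figure D4:**
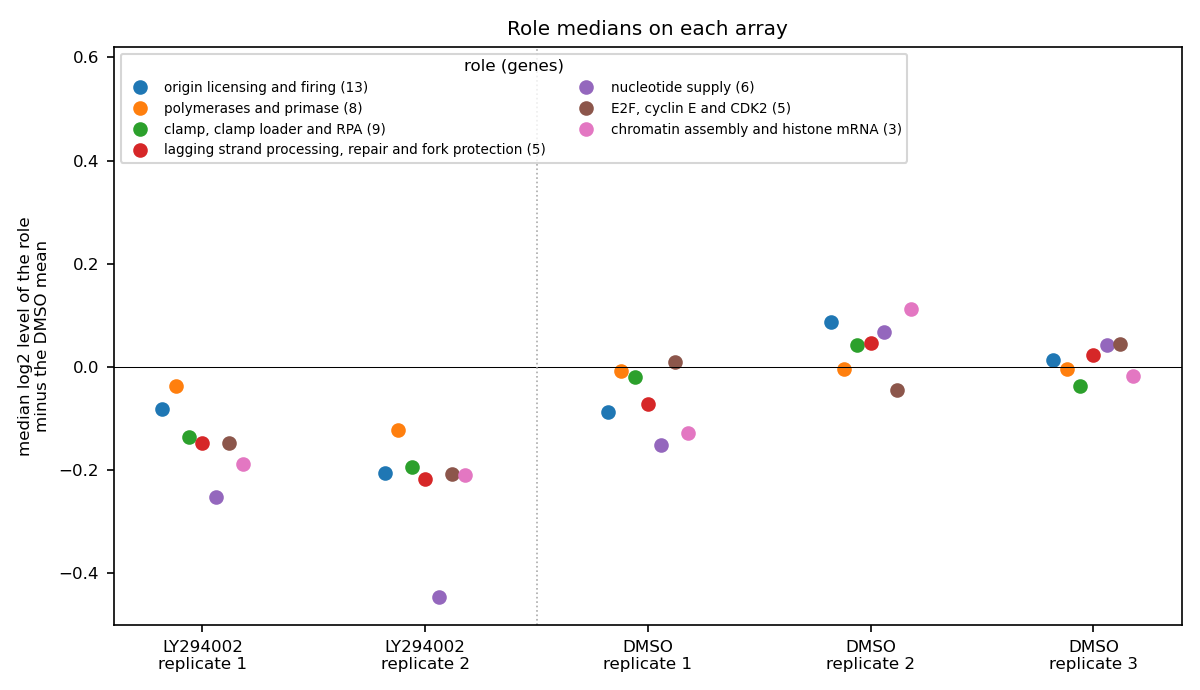
Median over the genes of each role (colours, number of genes in brackets) of the log2 level minus the DMSO mean of the gene (y axis) on each array (x axis, LY294002 arrays left of the dotted line). Nucleotide supply is lowest on LY294002 replicate 2, at -0.45, and origin licensing on LY294002 replicate 1, at -0.08, lies level with DMSO replicate 1, at -0.09.

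Role medians on both LY294002 arrays lay below those on all DMSO arrays in every role except origin licensing and firing, where LY294002 replicate 1 (-0.08) was level with DMSO replicate 1 (-0.09). Nucleotide supply stood at -0.25 and -0.45 with LY294002, against -0.15, 0.07 and 0.04 with DMSO. Polymerases and primase stood at -0.04 and -0.12 with LY294002, against -0.0076, -0.0032 and -0.0032 with DMSO. Differences between roles were not tested. Members also differed by signal level. The median log2 fold change was -0.28 in the 19 members with a DMSO mean above 8.27 and -0.07 in the 30 others. Over all genes the medians on the same split were 0.02 and -0.01. The part of signal level in the differences between roles was not tested.

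A total of 18 of the 49 probe sets, against 2848 of 7713 over all genes, are of the kind marked as able to bind several transcripts. Those of MCM2, CDC6, FEN1 and RRM1 are among them, and those of POLE2, POLA1, DUT and TYMS are not.

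Genes that work beside these members were measured as well, and their values spread to both sides of 0. A total of 99 further genes were listed for replication, nucleotide supply, G1/S control, chromatin assembly and repair. Of these, 62 were measured and 0 passed the limma threshold in either direction. At an unadjusted p under 0.05, 7 were lower and 7 higher (11.3% each), against 6.5% and 10.6% of all genes. Their log2 fold changes were below 0 in 33 of 62 (53.2%), near the share of all genes, and the median was -0.02. Both LY294002 arrays lay below DMSO in 15 (24.2%) and above it in 11 (17.7%), against 13.4% and 16.2% of all genes.

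Among 14 further genes of the replication machinery, the median was 0.02, with 8 log2 fold changes above 0 and 6 below. Both LY294002 arrays lay below all DMSO arrays in 0 of the 14 and above them in 4 (28.6%), against 13.4% and 16.2% of all genes. MCM3AP, a partner of MCM3, and TOP1, topoisomerase I, had the largest log2 fold changes, 0.40 ± 0.13 and 0.30 ± 0.12. In nucleotide supply NME1, a nucleoside diphosphate kinase, stood at 9.40 and 9.35 with LY294002, against 9.93, 10.20 and 10.29 with DMSO, a log2 fold change of -0.77 ± 0.12 (limma adjusted p = 0.0762), and SHMT2, the mitochondrial serine hydroxymethyltransferase, was at -0.30 ± 0.09. The 10 nucleotide genes had a median of -0.05.

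The 16 further G1/S genes had a median of 0.02 with large values of both signs. CKS2, a small CDK-binding protein, stood at 9.61 and 9.46 with LY294002, against 8.98, 8.52 and 8.68 with DMSO (log2 fold change 0.81 ± 0.15, limma adjusted p = 0.0995). SKP2, the ubiquitin ligase subunit that marks p27 for destruction, stood at 6.91 and 6.81 with LY294002, against 7.23, 7.56 and 7.44 with DMSO (log2 fold change -0.55 ± 0.11, limma adjusted p = 0.112). CDK4, the kinase partner of D-type cyclins and named here after its values were seen, missed the threshold narrowly at -0.52 ± 0.06 (limma adjusted p = 0.0504). Of 8 further chromatin assembly genes, 6 lay below DMSO with a median of -0.16, led by the histone chaperone NASP (-0.30 ± 0.12) and the acetyltransferase HAT1 (-0.28 ± 0.09). The 14 genes of recombination and mismatch repair had a median of -0.01, with the nuclease gene EXO1 at -0.42 ± 0.09 and NBN, a part of the MRE11 complex, at 0.24 ± 0.07.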

How the data were processed

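The deposited table holds log2 probe set values made by the authors. The submitters' processing notes name the R package affy. Its version and the steps of background correction and summary were not given in the sources used here. Values entered the fit as deposited, without further normalization. The fit covered 8746 of 8793 probe sets, without 47 controls. Symbols were taken from the annotation of the array: 7840 probe sets had 1 symbol, 388 several and 518 none, and the brightest probe set by mean over all arrays stood for a gene (7713 genes).

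LY294002 was compared with DMSO by limma 3.58.1 (lmFit and eBayes, R 4.3.3), two-sided, with group as the only term, 3 residual degrees of freedom and Benjamini-Hochberg adjustment over all probe sets at 0.05. The fit was tested on simulated data. The number of arrays limits the precision.

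The members and lists were chosen with earlier results of these data known. Every measured member is named. Values on every array are given for members past the threshold and, in each role, for up to 4 with the largest log2 fold change in size and the 1 nearest 0; of each further list up to 2 are named. Alternatives were quantile normalization, median centring, cyclic loess, removal of the dimmest 40% of probe sets, an intensity trend with robust prior, weights per array, a block for the replicate number, averaging over probe sets of a gene, a fit with unmoderated variances, and each array left out in turn; leaving out probe sets that repeat a value within a group was chosen after seeing the data. Promoter sequences are RefSeq's (GRCh38.p14). Plots used matplotlib 3.10.9 (Python 3.11.15).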

Additional observations from a re-analysis of the deposited data

How the results depend on the processing

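The number of members past the threshold was 1 on the low side as reported, 1 after median centring and when all probe sets of a gene were averaged, 7 under quantile normalization, 5 under cyclic loess, and 2 when the dimmest 40% of probe sets were dropped. It was 9 of 37 without probe sets of identical values on arrays of a group (an alternative added once the data had been seen, which takes out probe sets of low spread). It was 0 with an intensity trend and robust prior, with array weights, without variance moderation, and without any 1 array (0 to 0). The share of all genes called lower moved as well, from 0.298% for the values as deposited. It was 1.65% under quantile normalization, 1.24% under cyclic loess, 1.34% when the dimmest probe sets were dropped and 3.37% when tied ones were. After median centring it was 0.622%, and with the probe sets of a gene averaged 0.363%. With the intensity trend and robust prior it was 0.337%, with array weights 0.0648% and without variance moderation 0%. The cause was not tested. The 7 were FEN1, MCM2, POLA1, POLE2, RNASEH2A, RPA2 and RRM1. No member passed on the high side under any of these settings. The median of the members was -0.23 after quantile normalization and -0.21 to -0.14 without 1 array. Members with LY294002 below all DMSO arrays numbered 36 (73.5%) after quantile normalization, against 23.9% of all genes, and 25 to 37 without 1 array, against 16.6% to 38.5%. Those above numbered 2 to 4 without 1 array (4.08% to 8.16%), against 18.5% to 28.6% of all genes. In the replicate block DMSO replicate 3 has no partner of its number, so the log2 fold changes equal those without that array. The block also leaves fewer residual degrees of freedom than the main fit, so few genes of any kind could pass. With it 0 members and 0 of all genes passed, the median of the members was -0.19 and POLE2 was at -0.35 (limma adjusted p = 0.348). The labels give a replicate number and do not say whether same-numbered samples were handled together. The deviations of same-numbered arrays from their group mean correlated at 0.0021 for replicate 1 and -0.21 for replicate 2. With 2 LY294002 arrays these deviations mirror each other, and crossed pairs gave the same values with reversed sign (0.21 and -0.0021). These correlations therefore cannot settle whether the samples were paired. Of 33 genes given on every array, 28 kept their sign under every alternative that measured them. The others were CDC7 (0.0055 with the replicate block, and -0.0269 to 0.0064 without 1 array), POLE (-0.0392 to 0.0119), RFC3 (-0.3918 to 0.0598), RFC5 (-0.19 to 0.17) and MSH6 (-0.1275 to 0.0378), each range over leaving out 1 array; CDC7 was also at 0.0055 without DMSO replicate 3, POLE was highest without LY294002 replicate 1, and the others without LY294002 replicate 2.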
